A study of Homo sapiens with 36 samples.

Results

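The ATP-binding cassette (ABC) transporter family was followed by RNA-seq in A2780, a human ovarian cancer cell line, and in platinum-resistant cells derived from it. Members were all genes annotated as protein-coding whose symbol is ABC, a letter from A to G and a number, from ABCA1 to ABCG8. This rule took 45 of the 57820 genes in the table of counts, of which 19404 were protein-coding, and it used no expression value. A member was called detected where its mean reached 1 CPM (a count scaled to a common library size) in at least 1 condition, and 33 of the 45 members were.

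ABC proteins use the energy of ATP to move lipids, sterols, metal and heme compounds, peptides and drugs across membranes. Several members of subfamilies B, C and G pump drugs out of cells and are studied as a route to drug resistance in tumours, among them ABCB1 (P-glycoprotein), ABCC1 (MRP1) and ABCG2 (BCRP), and ABCC2 (MRP2) exports glutathione conjugates, a form in which platinum can leave cells. Subfamily A and part of subfamily G move lipids, subfamily D works in peroxisomes and lysosomes, ABCB6, ABCB8 and ABCB10 serve mitochondria and heme handling, and subfamilies E and F have no membrane domain and act on ribosomes.

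The study compared 3 cell states. Parental cells were platinum-sensitive (wt), cis cells were derived from them through long exposure to cisplatin, and cis SSP cells are a population that resumed growth when cis cells were kept without serine and glycine. The medium held serine and glycine (complete) or lacked both (-SG), and carboplatin (carbo), a platinum drug, was added or not, which gives 12 conditions of 3 libraries each. All 36 libraries come from 1 cell line, and the figure legends of the study describe the 3 replicates of each condition as technical, so that p-values here measure only the spread between these libraries. The labels give the carboplatin dose as 6 M, where the study's other assays use the micromolar range, and they give no treatment time. The labels describe homemade medium with dialysed serum for deprivation, and whether the libraries in complete medium came from the same base medium is not stated. The cells are labelled ovarian cancer cells, yet PAX8, WT1, MUC16 and EPCAM, which mark ovarian or other epithelium, had mean levels of at most 0.561, 1.21, 0.113 and 1.64 CPM in any condition. The epithelial keratins KRT8, KRT18 and KRT19 reached mean levels of 6.02, 43.1 and 7.44 CPM in the condition where each was highest. The mesenchymal marker VIM lay between 1580 and 4108 CPM. Other mesenchymal markers varied more over conditions, CDH2 between 10.2 and 1252 CPM and COL1A1 between 1.83 and 933 CPM. Markers of leukocytes, endothelium, hepatocytes and erythroid cells reached at most 0.196 CPM. In bulk RNA, fewer cells that express a gene and less RNA per cell cannot be told apart.

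Each library held between 13074937 and 20441582 counts on genes. Libraries 23 and 24, which are replicates 2 and 3 of cis -SG carbo, had 17.9% and 14.9% of reads on no annotated feature, against at most 9.31% elsewhere. In library 25, replicate 1 of cis SSP, 69.1% of 6361 protein-coding genes with a mean of at least 1 CPM and 5000 or more bases of exon were below the mean of the other cis SSP libraries, against 25.5% of 4998 shorter ones. Library 32, replicate 2 of cis SSP -SG, had the same pattern, with 69.0% of 6343 longer and 24.9% of 4975 shorter genes below. Most detected members are long, and 16 of 23 longer members in library 25 and 17 of 23 in library 32 were below, as were 2 of the 3 shorter members in each of these libraries. Values for cis SSP cells are therefore given with and without these libraries where they matter, and the part of this length pattern in the results was not tested.

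Promoter sequences are shown for 7 members on which the results turn. They run from 250 bases before to 50 bases after the annotated transcript start in GRCh37, read 5′ to 3′ on the gene's own strand. ABCA5, ABCA10, ABCA6 and ABCA9 are shown because they lie side by side on chromosome 17 and rose together with carboplatin in wt cells. They are on the minus strand at chr17:67323225-67323524, chr17:67224916-67225215, chr17:67137987-67138286 and chr17:67057019-67057318. ABCA1 (chr9:107690387-107690686, minus strand), ABCC2 (chr10:101542147-101542446, plus strand) and ABCG2 (chr4:89079742-89080041, minus strand) are shown because each followed its own pattern over the cell states. The annotated spans of ABCA10 and ABCG2 extend upstream of these starts. Capitals mark matches, on either strand, to the TATA box TATAAA, to the CCAAT box, to the GC box motif, which reads GGGCGG, or to the E-box motif, which reads CACGTG. They also mark the AP-1 motif, which reads TGACTCA, and the core of the antioxidant response element, which reads TGACNNNGC. TGATGNAAT, an amino acid response element, was also searched. TGACTCA and TGACNNNGC can overlap each other.
ABCA5: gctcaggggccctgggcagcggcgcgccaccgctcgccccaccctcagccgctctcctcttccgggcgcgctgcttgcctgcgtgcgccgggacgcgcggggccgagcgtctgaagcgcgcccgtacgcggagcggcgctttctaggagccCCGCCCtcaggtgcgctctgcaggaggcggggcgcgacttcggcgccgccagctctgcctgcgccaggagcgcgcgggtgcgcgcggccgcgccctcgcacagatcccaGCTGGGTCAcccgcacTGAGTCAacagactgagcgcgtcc
ABCA10: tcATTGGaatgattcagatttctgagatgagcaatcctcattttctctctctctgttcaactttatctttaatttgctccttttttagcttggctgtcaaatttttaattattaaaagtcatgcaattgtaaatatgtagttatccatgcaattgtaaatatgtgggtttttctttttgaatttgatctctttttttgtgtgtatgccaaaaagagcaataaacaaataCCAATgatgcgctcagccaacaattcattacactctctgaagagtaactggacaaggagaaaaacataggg
ABCA6: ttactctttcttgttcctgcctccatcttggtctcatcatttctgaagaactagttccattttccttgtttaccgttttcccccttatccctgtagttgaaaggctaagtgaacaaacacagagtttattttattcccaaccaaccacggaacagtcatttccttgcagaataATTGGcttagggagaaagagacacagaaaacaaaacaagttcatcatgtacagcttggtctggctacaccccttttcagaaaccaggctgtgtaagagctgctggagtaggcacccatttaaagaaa
ABCA9: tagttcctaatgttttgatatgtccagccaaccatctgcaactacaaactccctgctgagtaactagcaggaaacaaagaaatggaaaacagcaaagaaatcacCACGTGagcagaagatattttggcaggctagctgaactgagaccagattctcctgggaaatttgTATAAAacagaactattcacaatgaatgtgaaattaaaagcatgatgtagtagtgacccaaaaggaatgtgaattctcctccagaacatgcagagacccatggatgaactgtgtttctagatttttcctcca
ABCA1: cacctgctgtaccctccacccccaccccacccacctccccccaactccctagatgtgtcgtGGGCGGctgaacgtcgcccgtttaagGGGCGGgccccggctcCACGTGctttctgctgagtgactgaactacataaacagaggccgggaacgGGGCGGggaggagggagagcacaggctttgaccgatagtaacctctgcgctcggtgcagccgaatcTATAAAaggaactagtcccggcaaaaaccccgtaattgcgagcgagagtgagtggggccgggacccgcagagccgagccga
ABCC2: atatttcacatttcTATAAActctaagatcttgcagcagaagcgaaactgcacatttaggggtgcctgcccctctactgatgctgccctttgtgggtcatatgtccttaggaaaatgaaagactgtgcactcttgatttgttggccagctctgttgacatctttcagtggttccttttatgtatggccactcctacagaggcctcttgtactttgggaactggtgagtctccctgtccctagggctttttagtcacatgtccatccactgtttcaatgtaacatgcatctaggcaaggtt
ABCG2: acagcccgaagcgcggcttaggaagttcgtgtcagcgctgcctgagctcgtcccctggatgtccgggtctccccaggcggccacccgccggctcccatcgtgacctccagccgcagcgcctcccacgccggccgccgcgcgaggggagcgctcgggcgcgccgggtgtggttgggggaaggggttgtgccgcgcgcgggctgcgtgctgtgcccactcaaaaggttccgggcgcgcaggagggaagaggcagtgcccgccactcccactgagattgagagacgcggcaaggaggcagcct
The ABCA5 promoter held 45 CG dinucleotides and matches to GGGCGG at -99, TGACNNNGC at 10 and TGACTCA at 26, counted from the start. ABCA10, ABCA6 and ABCA9 held 1, 2 and 1 CG, against a median of 23 over the 19881 promoters of protein-coding genes. ABCA10 had CCAAT at -248 and -21, ABCA6 had CCAAT at -77, and ABCA9 had TATAAA at -82 and CACGTG at -146. ABCA1 held 23 CG and had a match to TATAAA at -31, a further 3 to the GC box motif at -189, -163 and -97, and a match to the E-box motif at -147. ABCC2 held 1 CG and TATAAA at -236, and ABCG2 held 35 CG and none of these motifs. Over all members, GGGCGG was found in 25 of 45 promoters (61.4% of all promoters), CCAAT in 10 (36%), TGACNNNGC in 7 (14%), TATAAA in 6 (9.62%), CACGTG in 5 (8.76%), TGACTCA in 1 (3.56%) and TGATGNAAT in 0 (0.589%). The median was 28 CG for detected and 4.5 for undetected members. A match describes these letters only.

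Among the 33 detected members, 22 passed 1 CPM in each of the 12 conditions. The 4 members that act on ribosomes were all detected, as were 8 of 11 in the multidrug and conjugate efflux group, 4 of 7 in cholesterol and phospholipid export and 7 of 10 other members of subfamily A. Of untreated cells, 25 members were detected in wt, 24 in cis and 26 in cis SSP, and carboplatin brought the number in wt cells to 31. ABCB1 was not detected: it had 6 counts in all 36 libraries together and at most 1 count in a library. The other undetected members were ABCA8, ABCA12, ABCA13, ABCB4, ABCB5, ABCB11, ABCC9, ABCC11, ABCC12, ABCG5 and ABCG8, with mean levels of at most 0.703 CPM, and ABCB11 had no count, which allows up to 3 counts over these libraries. The value for ABCC11 is uncertain, since LONP2 overlaps it on the opposite strand with far more counts.

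**Figure D1:**
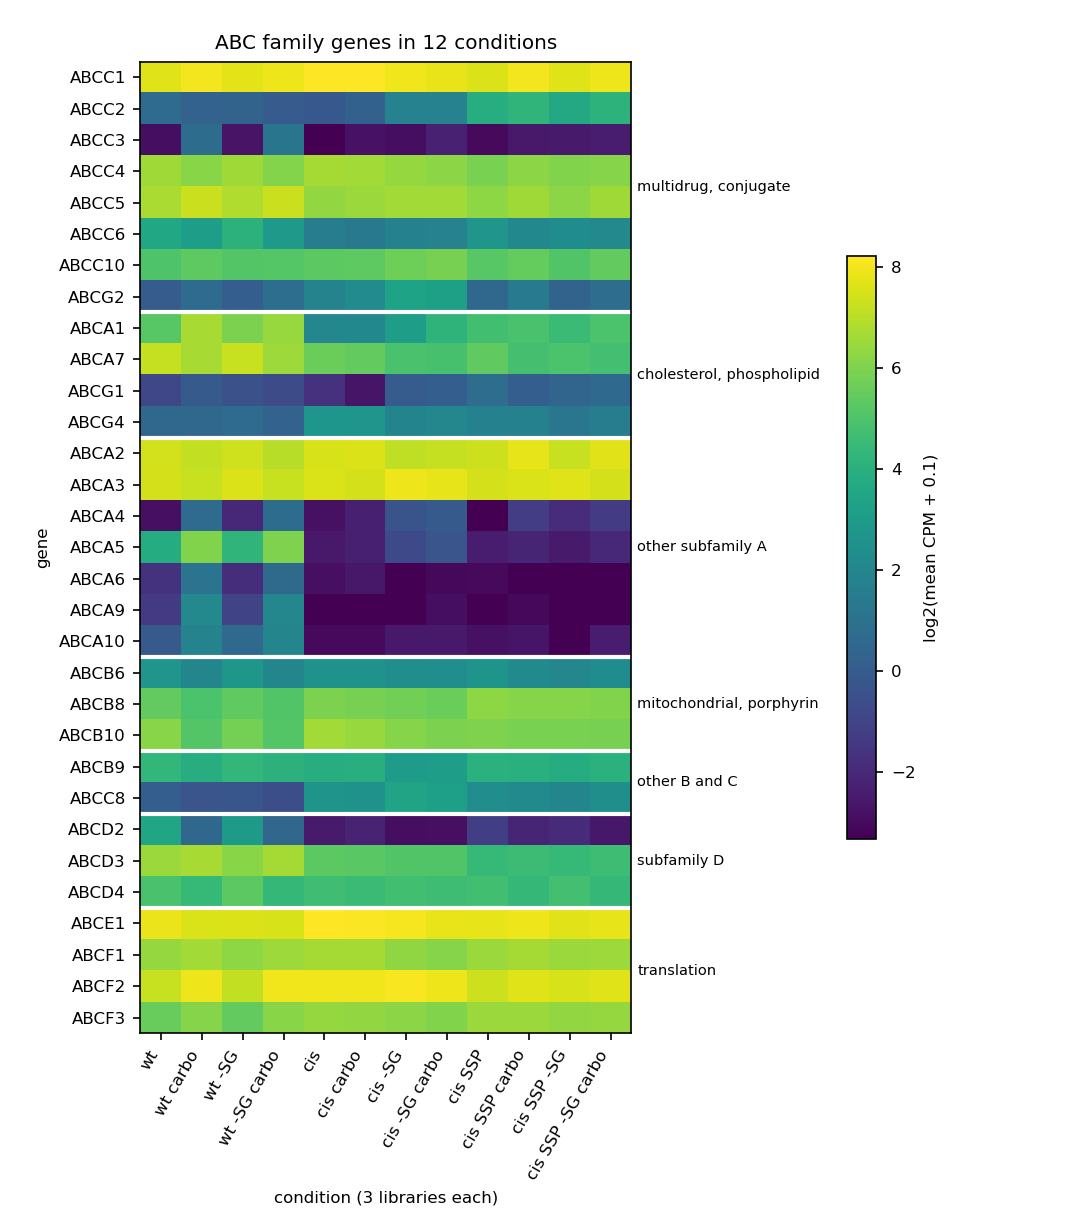
Level of 31 detected ABC members (rows) in the 12 conditions (columns), as log2 of the mean CPM of 3 libraries plus 0.1, with dark and light colours as given by the scale. ABCA5, ABCD2 and ABCA1 are high in wt columns, ABCC2 in cis SSP columns and ABCG2 in cis columns.

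Per kilobase of transcript, the highest level in wt cells was that of ABCE1, which splits ribosomes after termination, at 61.7 CPM per kilobase. ABCF2 followed at 33.4 and ABCC1 at 30.8 CPM per kilobase. ABCA3, a lipid transporter known from surfactant-producing lung cells, stood at 27 CPM per kilobase, and ABCD3, a peroxisomal fatty acid transporter, at 25.2. The steadiest detected member was ABCF1, whose highest mean over conditions was 1.46 times its lowest, and ABCC1 came next at 1.51 times. ABCA1, which loads cholesterol and phospholipid onto apolipoproteins, had the widest range of the 22 members detected throughout, at 26.9 times.

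Platinum-resistant cis cells and sensitive wt cells differed in most tested members. The test was the quasi-likelihood test of edgeR, adjusted over all tested genes by the Benjamini-Hochberg method, and is called the edgeR test from here on. In it 25 of 28 tested members passed an adjusted p of 0.05, 13 higher and 12 lower in cis cells. Over all genes, 78.5% of 14431 were called, 39.4% higher and 39.1% lower. Of the members, 10 of 28 differed by at least 1 on the log2 scale, against 24.6% of all genes, and the median absolute log2 fold change was 0.59 against 0.44. The lipid transporters ABCA5, ABCD2 and ABCA10 lay at the low end in cis cells. The drug pump ABCG2, the sterol transporter ABCG4 and ABCC8, the sulfonylurea receptor of potassium channels, lay at the high end.

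Of the efflux group, 4 of 7 tested members were higher and 3 lower in cis cells, against 39.4% and 39.1% of all genes. ABCG2 had 0.609, 0.999 and 1.15 CPM in wt libraries and 3.17, 4 and 3.21 CPM in cis libraries, with no overlap. It was 3.66-fold higher in cis cells, a log2 fold change of 1.87 (SE 0.221, adjusted p = 2.72e-10) in the edgeR test. ABCC1 (chr16:16042995-16237114), which exports glutathione conjugates, had 198, 204 and 198 CPM in wt and 297, 291 and 299.5 CPM in cis libraries. This difference was smaller than that of ABCG2 but far outside the spread, with a log2 fold change of 0.53 (SE 0.0253, adjusted p = 2.59e-23). ABCC2 was low in both states and lower in cis cells, at 1.38, 1.55 and 1.73 CPM against 0.858, 0.758 and 0.846 CPM. Its log2 fold change was -0.96 (SE 0.260, adjusted p = 0.000959) in the edgeR test. ABCC5, an exporter of cyclic nucleotides, fell from 109 ± 1.60 CPM (SD, n = 3) to 81.7 ± 3.41 CPM (SD, n = 3), by 0.45 on the log2 scale. ABCC4, which also exports cyclic nucleotides, stood at 94.8 ± 4.69 and 102 ± 1.65 CPM, and its adjusted p of 0.045 held in 2 of 6 leave-one-out fits of edgeR, each without 1 library. ABCC3 had at most 1 count in any library of either state. ABCC6, whose loss causes ectopic calcification, fell from 12.6, 11.4 and 12.4 CPM to 2.64, 3.41 and 2.48 CPM. Its log2 fold change of -2.11 is less certain because 2 near-identical pseudogenes carried counts equal to 26% and 9.63% of its own.

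In the cholesterol and phospholipid export group, ABCA1 and ABCA7 were lower and ABCG4 higher in cis cells. ABCA1 had 36.4, 38.1 and 39.2 CPM in wt libraries and 3.76, 4.22 and 3.95 CPM in cis libraries. Every cis library was below every wt library, and the fall was 9.71-fold, a log2 fold change of -3.28 (SE 0.0838, adjusted p = 7.33e-34) in the edgeR test. ABCA7, a phospholipid transporter related to ABCA1, had 146, 142 and 153 CPM against 52.6, 50.9 and 45.6 CPM, a log2 fold change of -1.60 (SE 0.0445, adjusted p = 2.22e-20). ABCG4, which can pass sterols to lipoproteins, moved the other way, from 1.22, 1.05 and 1.73 CPM to 6.86, 6.38 and 6.88 CPM. The edgeR test gave a log2 fold change of 2.28 (SE 0.169, adjusted p = 1.98e-16). ABCG1, its close relative, stayed under 1 CPM in both states, at means of 0.453 and 0.210 CPM, and had too few counts to enter this test.

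The lowest members in cis cells against wt cells were 3 lipid transporters whose expression all but disappeared. ABCA5, a lysosomal lipid transporter, had 14.4, 12.6 and 15.4 CPM in wt libraries and 0, 0.0541 and 0.169 CPM in cis libraries, which is 781 counts against 4 counts in all. The ratio was 182 (95% counting interval 70.7 to 669), an interval that covers counting error only. ABCD2 (chr12:39943835-40013605), a peroxisomal transporter of very long chain fatty acids, had 11.1, 11.3 and 11.2 CPM against 0.0660, 0.108 and 0.0564 CPM, 618 counts against 4. Its ratio was 144 (95% counting interval 55.9 to 529.8). ABCA10, which lies next to ABCA5 and overlaps it on the same strand, had 46 counts against 1, a ratio of 42.8 (95% counting interval 7.32 to 1729). All 3 were called in the edgeR test. ABCD3 fell too, from 90.3, 93 and 89.2 CPM to 38.7, 38.5 and 41.5 CPM, by 1.23 on the log2 scale. Among the other subfamily A members, ABCA2 did not pass the test and ABCA3 passed it with a log2 fold change of 0.07, a call that held in 3 of 6 fits that left out a library.

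**Figure D2:**
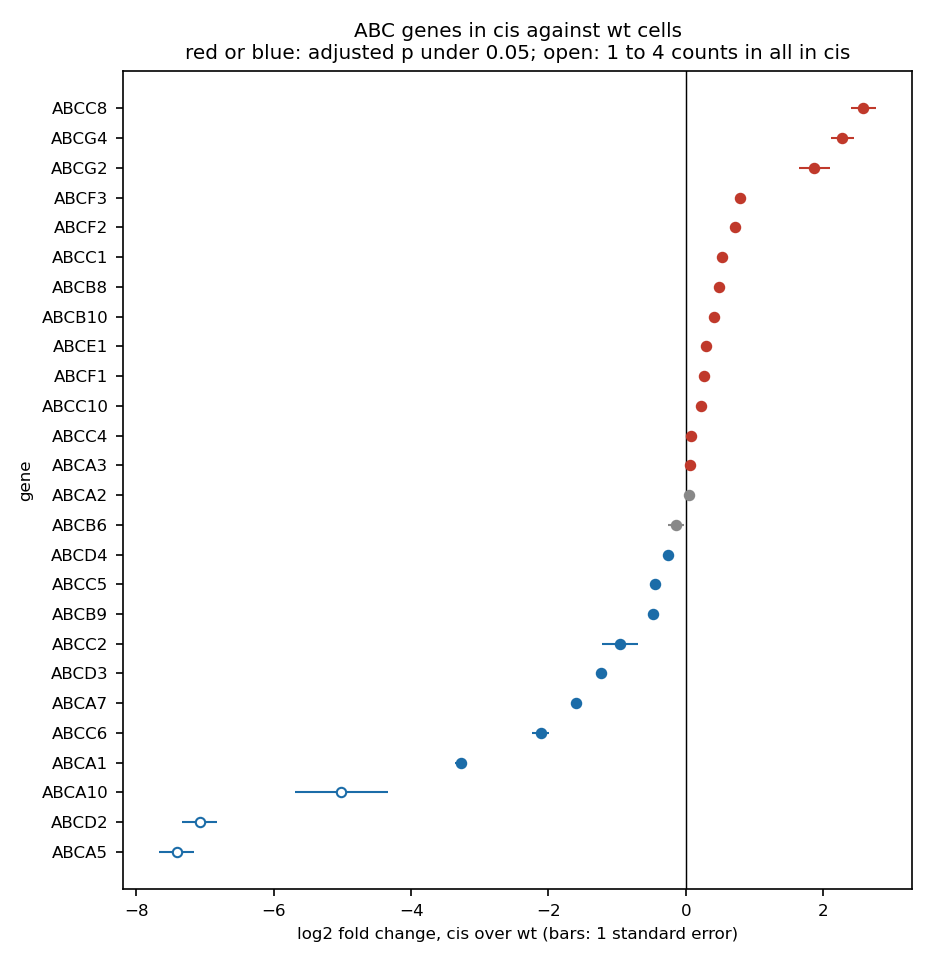
Log2 fold change of cis against wt cells in complete medium for 26 tested ABC members in order of their values, with bars of 1 standard error. Open symbols are ABCA5, ABCD2 and ABCA10, which had 1 to 4 counts in all in cis cells, so that their fitted values are no bound; ABCC8, ABCG4 and ABCG2 lie highest.

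ABCC8 was the member with the highest positive fold change, with 1.05, 0.943 and 0.997 CPM in wt and 5.94, 7.03 and 5.47 CPM in cis libraries. The edgeR test gave a log2 fold change of 2.59 (SE 0.185, adjusted p = 5.64e-17), and the libraries did not overlap. All 4 ribosome-acting members were higher in cis cells, as were 39.4% of all genes. ABCF2 rose from 151 ± 3.86 to 253 ± 7.39 CPM (SD, n = 3), a log2 fold change of 0.71, and ABCF3 from 47.2 ± 1.47 to 83.6 ± 3.45 CPM, a log2 fold change of 0.79. ABCE1 and ABCF1 rose by less, with log2 fold changes of 0.29 and 0.26. The value for ABCE1 is uncertain in that OTUD4 overlaps it on the opposite strand and the strand setting of the counting is not stated. Of the mitochondrial members, ABCB10, which supports heme synthesis, and ABCB8 were higher, with log2 fold changes of 0.41 and 0.49. ABCB6, a porphyrin transporter, did not pass the test.

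The genes around the changed members were counted within 1 Mb, among the other tested protein-coding genes. On chromosome 17, ABCA8, ABCA9, ABCA6, ABCA10 and ABCA5 stand in a row, and MAP2K6, a stress kinase gene, follows ABCA5. MAP2K6 fell from a mean of 59.7 CPM to 0.450 CPM, a log2 fold change of -7.07 (SE 0.120, adjusted p = 5.39e-41) in the edgeR test. PRKAR1A, on the other side of the row, stood at means of 229 and 254 CPM. Against the 39.1% of all genes that were lower and 39.4% that were higher, 4 of 4 tested neighbours of ABCD2 were lower in cis cells, at a median of -0.87 on the log2 scale. Around ABCD3, 9 of 9 were lower, with a median of -1.37, close to its own value of -1.23. Around ABCC4, 6 of 6 were lower with a median of -0.94, while ABCC4 itself stood at 0.08. ABCG2 was high among low neighbours: 11 of 16 were lower and 4 higher, with a median of -1.37. Around ABCC1, 8 of 10 were higher, with a median of 0.37, and around ABCA1 2 were higher and 2 lower of 6. Among the lower neighbours of ABCA1, SLC44A1 fell by 3.72 on the log2 scale. The tested neighbours of ABCC8 were 8 higher and 6 lower of 16, with a median of 0.30. KCNJ11, next to ABCC8, rose by 2.33. Why neighbours moved with some members was not tested.

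**Figure D3:**
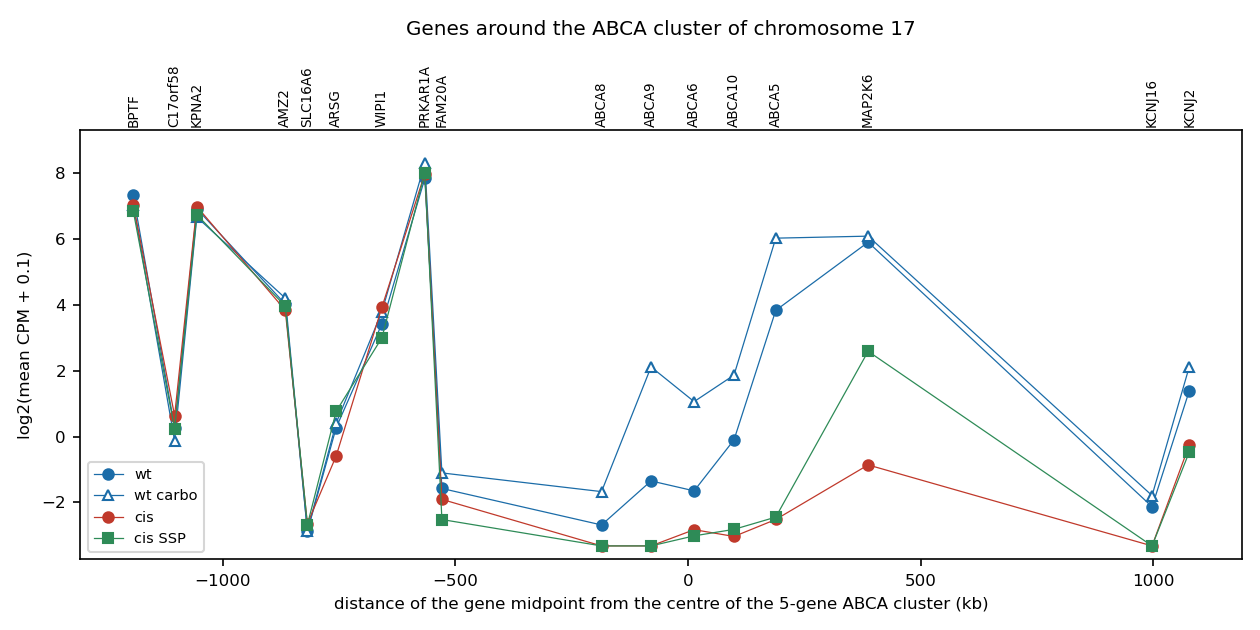
Level, as log2 of the mean CPM of 3 libraries plus 0.1, of protein-coding genes around the ABCA cluster of chromosome 17 against distance in kb from the cluster's centre, for wt, wt carbo, cis and cis SSP cells. ABCA9, ABCA6, ABCA10 and ABCA5 are higher in wt carbo than in wt cells and near the floor in cis and cis SSP cells, and MAP2K6 is lower in cis cells, while the 4 values of PRKAR1A lie between 229 and 314 CPM.

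Carboplatin changed 30 of 33 tested members in wt cells in complete medium, 17 higher and 13 lower. The background was 77.8% of 14639 genes, with 38.9% higher and 39.0% lower. Of 7 tested members of the group of intracellular and other lipid transporters of subfamily A, 5 rose, while ABCA2 and ABCA3 fell by 0.25 and 0.19 on the log2 scale. ABCA7, of the export group, fell by 0.47, and the mitochondrial members ABCB6, ABCB8 and ABCB10 fell. The 5 that rose were ABCA4, ABCA9, ABCA6, ABCA5 and ABCA10, of which 4 belong to the row on chromosome 17.

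ABCA5 rose from 14.4, 12.6 and 15.4 CPM to 66.9, 60.4 and 67.8 CPM with carboplatin, 4.65-fold. The log2 fold change was 2.22 (SE 0.0543, adjusted p = 1.87e-171) in the edgeR test, and the lowest treated library was well above the highest untreated one. ABCA9 had 0.221, 0.499 and 0.157 CPM untreated and 4.12, 3.68 and 4.89 CPM treated, a log2 fold change of 3.85 (SE 0.269, adjusted p = 5.46e-41). ABCA10 had 0.941, 0.666 and 0.892 CPM and 4.22, 3.56 and 2.85 CPM, a log2 fold change of 2.10 (SE 0.220, adjusted p = 5.08e-20). ABCA6 reached 2.17, 1.81 and 1.98 CPM from a mean of 0.219 CPM. Reads of ABCA10 and ABCA5 could be shared where the genes overlap, and ABCA9 and ABCA6 do not overlap ABCA5. ABCA4, the retinoid transporter of photoreceptors, went from 2 counts in all to 79, a ratio of 41.7 (95% counting interval 11.2 to 351). In cis cells none of these 5 genes exceeded a mean of 0.105 CPM with carboplatin.

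ABCA1 rose in wt cells from 36.4, 38.1 and 39.2 CPM to 110.0, 104 and 106 CPM, 2.85-fold. The edgeR test gave a log2 fold change of 1.51 (SE 0.0383, adjusted p = 1.79e-189). ABCD2 fell from 11.1, 11.3 and 11.2 CPM to 1.14, 1.15 and 1.75 CPM. Its log2 fold change was -3.04 (SE 0.146, adjusted p = 4.14e-76), the widest fall of any member in this comparison. ABCG1 rose with a log2 fold change of 0.93 (SE 0.359, adjusted p = 0.013) but kept its call in 4 of 6 edgeR fits that left out a library.

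Of the efflux group, 5 of 8 tested members rose and 2 fell in wt cells with carboplatin, against 38.9% and 39.0% of all genes. ABCC3, an exporter of bile salts and glucuronides, had 0.0553, 0 and 0.0525 CPM untreated and 1.35, 1.99 and 1.46 CPM treated, 2 counts against 83. The ratio was 43.8 (95% counting interval 11.8 to 368). ABCC1 rose from 200.1 ± 3.18 to 258 ± 2.44 CPM (SD, n = 3), a log2 fold change of 0.38, and ABCC5 from 109 ± 1.60 to 159 ± 5.87 CPM, a log2 fold change of 0.56. ABCG2 rose from a mean of 0.921 to 1.53 CPM, with an adjusted p of 0.0073 that was lost in 1 of 6 edgeR fits that left out a library. ABCC4 fell by 0.35 on the log2 scale. ABCC2 did not pass the test, with a log2 fold change of -0.42 (SE 0.251, adjusted p = 0.115).

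The mitochondrial members ABCB10, ABCB6 and ABCB8 fell in wt cells with carboplatin. ABCB10 went from 74.3, 73.4 and 72.1 CPM to 35.5, 36.4 and 34.5 CPM, a log2 fold change of -1.03 (SE 0.0426, adjusted p = 1.28e-96). ABCB6 went from 6.92, 6.21 and 6.35 CPM to 3.90, 4.35 and 3.32 CPM, a log2 fold change of -0.74, and ABCB8 fell by 0.46. In each of these genes the treated and untreated libraries did not overlap. Of the ribosome-acting members, ABCF1, ABCF2 and ABCF3 rose, with log2 fold changes of 0.27, 0.73 and 0.59, while ABCE1 fell by 0.33.

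In resistant cis cells 4 of 25 tested members were called with carboplatin, 2 higher and 2 lower, against 20.1% of 13458 genes, 9.27% higher and 10.8% lower. The number was 2 without replicate 1 of cis or without replicate 1 of cis carbo, where 15% and 15.3% of all genes were called. No member changed by 1 or more on the log2 scale. ABCB10 had 97, 98.7 and 103 CPM untreated and 91.2, 83.9 and 89.2 CPM treated, a log2 fold change of -0.15 (SE 0.0378, adjusted p = 0.00609) in the edgeR test. ABCC5 rose from 84.5, 82.7 and 77.9 CPM to 88.5, 88.7 and 89.7 CPM, a log2 fold change of 0.15 (SE 0.0395, adjusted p = 0.00651). ABCG2 had a log2 fold change of 0.43 (SE 0.154, adjusted p = 0.0475) and ABCA7 one of -0.16 (SE 0.0555, adjusted p = 0.0493), and each kept its call in 2 of 6 fits that left out a library. ABCA1 had 3.76, 4.22 and 3.95 CPM untreated and 4.08, 4.52 and 3.74 CPM treated, which overlap. Its log2 fold change was 0.06 (SE 0.146, adjusted p = 0.811).

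Whether carboplatin acted differently on wt and cis cells was tested by the interaction term of an edgeR fit to their 4 conditions, given as the wt log2 fold change minus that of cis cells. It was called for 23 of 33 tested members, 10 positive and 13 negative, against 57.6% of 15300 genes, 27.2% positive and 30.3% negative. The difference was 1.44 for ABCA1 (adjusted p = 4.13e-13). It was -0.89 for ABCB10 (adjusted p = 3.16e-21) and -0.76 for ABCB6 (adjusted p = 0.000192). ABCC1 and ABCC5 differed by 0.33 and 0.41, ABCF2 and ABCF3 by 0.68 and 0.58. ABCD2 differed by -3.74 (adjusted p = 0.000662), but by -2.88 with an adjusted p of 0.0875 without replicate 1 of cis carbo. ABCA5, ABCA6, ABCA9, ABCA10 and ABCC3 did not pass the test of this term, and their means in cis cells were at most 0.105 CPM in both conditions. ABCG2 did not pass it either, with a difference of 0.31 (SE 0.303, adjusted p = 0.408).

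In cis SSP cells 1 of 26 tested members was called with carboplatin, against 2.72% of 13885 genes, 1.97% higher and 0.749% lower. An unadjusted p under 0.05 was found for 7 of the 26 members and for 2342 of the 13885 genes. The called member was ABCA7, which went from 41.4, 41.9 and 43.8 CPM to 29.2, 27.3 and 27.8 CPM, a log2 fold change of -0.60 (SE 0.0898, adjusted p = 0.0283) in the edgeR test. Without library 25 the number called was 17, with 8 higher and 9 lower, against 41.2% of all genes in that fit. Without any other single library it was 0, against between 0.0636% and 0.46% of all genes. ABCG2 had 1.63, 1.14 and 1.41 CPM untreated and 2.95, 2.55 and 2.48 CPM treated, which do not overlap, and a log2 fold change of 0.93 (SE 0.187, adjusted p = 0.0621). The call of ABCA7 also held in 1 of 6 leave-one-out fits, the fit without library 25.

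**Figure D4:**
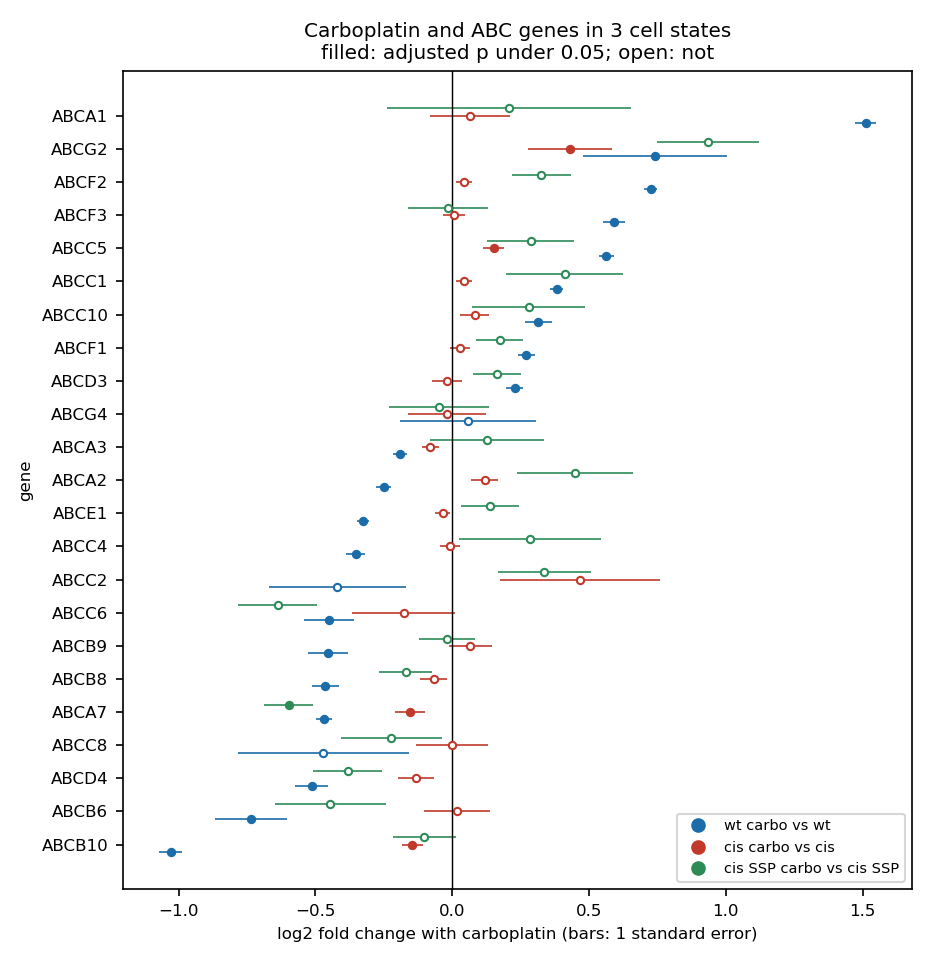
Log2 fold change with carboplatin in complete medium for 23 ABC members tested in wt, cis and cis SSP cells, with filled symbols for members called at an adjusted p under 0.05. The wt values run from -1.03 for ABCB10 to 1.51 for ABCA1, while the cis values lie between -0.18 and 0.47.

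Serine and glycine deprivation changed members in wt and in cis cells. In wt cells 14 of 29 tested members were called, 10 higher and 4 lower, against 49.2% of 14284 genes, 24.1% higher and 25.1% lower. In cis cells 21 of 25 were called, 8 higher and 13 lower, against 75.0% of 14122 genes, 37.6% higher and 37.4% lower. The 3 members of cis cells past 1 on the log2 scale were ABCC2, ABCG2 and ABCA1, which were all higher without serine and glycine.

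ABCC2 had 0.858, 0.758 and 0.846 CPM in cis cells with and 3.36, 2.79 and 3.83 CPM without serine and glycine. It rose 4.13-fold, a log2 fold change of 2.05 (SE 0.225, adjusted p = 3.63e-11) in the edgeR test. ABCG2 had 3.17, 4 and 3.21 CPM and 9.92, 11.2 and 10.3 CPM, and it rose 3.05-fold, a log2 fold change of 1.61 (SE 0.120, adjusted p = 1.83e-16). The mean of 10.5 CPM was the highest of ABCG2 in the 12 conditions. ABCA1 had 3.76, 4.22 and 3.95 CPM and 9.87, 7.55 and 8.51 CPM, a log2 fold change of 1.14 (SE 0.125, adjusted p = 3.24e-11). ABCC8 rose from 6.15 ± 0.803 to 10.7 ± 0.703 CPM (SD, n = 3), a log2 fold change of 0.81. In none of these genes did the libraries with and without serine and glycine overlap. ABCG4, ABCB9, ABCA7 and ABCB10 fell, with log2 fold changes of -0.87, -0.80, -0.72 and -0.48. ABCC1 and ABCC4 fell by 0.20 and 0.26, and ABCC5 rose by 0.30.

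In wt cells no member passed 1 on the log2 scale. ABCA1 rose from 36.4, 38.1 and 39.2 CPM to 61.9, 70.9 and 55.5 CPM, a log2 fold change of 0.75 (SE 0.0870, adjusted p = 0.000208) in the edgeR test. ABCC6, ABCA5 and ABCD4 rose with log2 fold changes of 0.53, 0.43 and 0.38. ABCD2, ABCB10, ABCD3 and ABCE1 fell by 0.52, 0.38, 0.32 and 0.28. ABCG2 had 0.609, 0.999 and 1.15 CPM with and 1.03, 0.842 and 1.09 CPM without serine and glycine, which overlap, and ABCC2 had means of 1.56 and 1.19 CPM. Neither passed the test.

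The deprivation responses of wt and cis cells differed for 19 of 29 tested members in the interaction term of the edgeR fit, 9 positive and 10 negative, against 54.0% of 15418 genes, 26.9% positive and 27.1% negative. The wt response minus the cis response was -2.42 (SE 0.327, adjusted p = 6.21e-08) for ABCC2. It was -1.53 (SE 0.315, adjusted p = 8.47e-05) for ABCG2 and -1.27 (SE 0.340, adjusted p = 0.00174) for ABCC8. ABCG4, ABCB9 and ABCA7 differed the other way, by 1.05, 0.82 and 0.77. For ABCA1 the term was -0.41 (SE 0.186, adjusted p = 0.0721), so that a difference between the responses was not shown. ABCA5 had a term of -2.13 that rests on 4 counts in all in cis cells against 27 after deprivation.

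In cis SSP cells, which had resumed growth without serine and glycine, the edgeR test called 0 of 26 members between media. An unadjusted p under 0.05 was found for 3 of these members and for 907 of 13736 genes. The background of called genes was 0.0218% of 13736, all 3 of them higher. DESeq2 also called 0 members, against 105 of 14769 genes, with 3 members and 786 genes at an unadjusted p under 0.05. Both groups hold a library with the length pattern, and without libraries 25 and 32 the number called was 11, with 3 higher and 8 lower, against 35.9% of all genes in that fit. The common dispersion between libraries was 0.0682 here, against 0.000800 in the same comparison of cis cells.

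Cells of the cis SSP state differed from cis cells in 12 of 26 tested members, 6 higher and 6 lower, against 29.1% of 13714 genes, 15.8% higher and 13.3% lower. The 3 widest rises were those of ABCC2, ABCG1 and ABCA1, and the widest fall was that of ABCG2. These are comparisons with the same cis libraries that served against wt cells, so that a high or low value in those libraries moves both results. The number called was 20 without library 25, where 65.4% of all genes were called, and 7 without replicate 3 of cis, where 14.6% were.

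ABCC2 had 0.858, 0.758 and 0.846 CPM in cis libraries and 11, 17 and 15.8 CPM in cis SSP libraries, 18.1-fold higher. The log2 fold change was 4.18 (SE 0.241, adjusted p = 0.00014) in the edgeR test. The mean stayed between 12.5 and 18.5 CPM in the 4 cis SSP conditions, and the highest mean elsewhere was 3.35 CPM in cis -SG carbo. ABCG1, which exports cholesterol to lipoproteins, had 0.132, 0.216 and 0.282 CPM and 1.56, 1.56 and 1.85 CPM, a log2 fold change of 2.94 (SE 0.285, adjusted p = 0.000853). ABCA1 had 3.76, 4.22 and 3.95 CPM and 9.55, 35.2 and 33.7 CPM, where the low value is that of library 25. Its log2 fold change was 2.75 (SE 0.507, adjusted p = 0.00966), and 3.15 with an adjusted p of 3.69e-25 without that library. ABCC6 rose as well, from a mean of 2.84 to 6.37 CPM, a log2 fold change of 1.18.

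ABCG2 was lower in cis SSP cells, with 1.63, 1.14 and 1.41 CPM against 3.17, 4 and 3.21 CPM in cis cells and no overlap. The edgeR test gave a log2 fold change of -1.30 (SE 0.197, adjusted p = 0.00458), and library 25 was the highest cis SSP library here. ABCG4 fell from a mean of 6.71 to 3.32 CPM and ABCD3 from 39.6 to 21.3 CPM, with log2 fold changes of -0.99 and -0.87. ABCB10, ABCF2 and ABCE1 fell by 0.62, 0.61 and 0.42, with calls in 3, 5 and 1 of 6 fits that left out a library. The call of ABCB10 was lost without each cis library, and that of ABCF2 without replicate 3 of cis. ABCB8 rose by 0.35 and kept its call in 1 of 6 such fits. ABCC1 had 135, 233 and 226 CPM in cis SSP libraries, and the low value is again that of library 25. It did not pass the test, with a log2 fold change of -0.55 (SE 0.221, adjusted p = 0.111). ABCA5 and ABCD2 stayed near the floor, at means of 0.0834 and 0.337 CPM. MAP2K6, next to ABCA5, returned in part, to a mean of 5.92 CPM from 0.450 in cis cells.

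**Figure D5:**
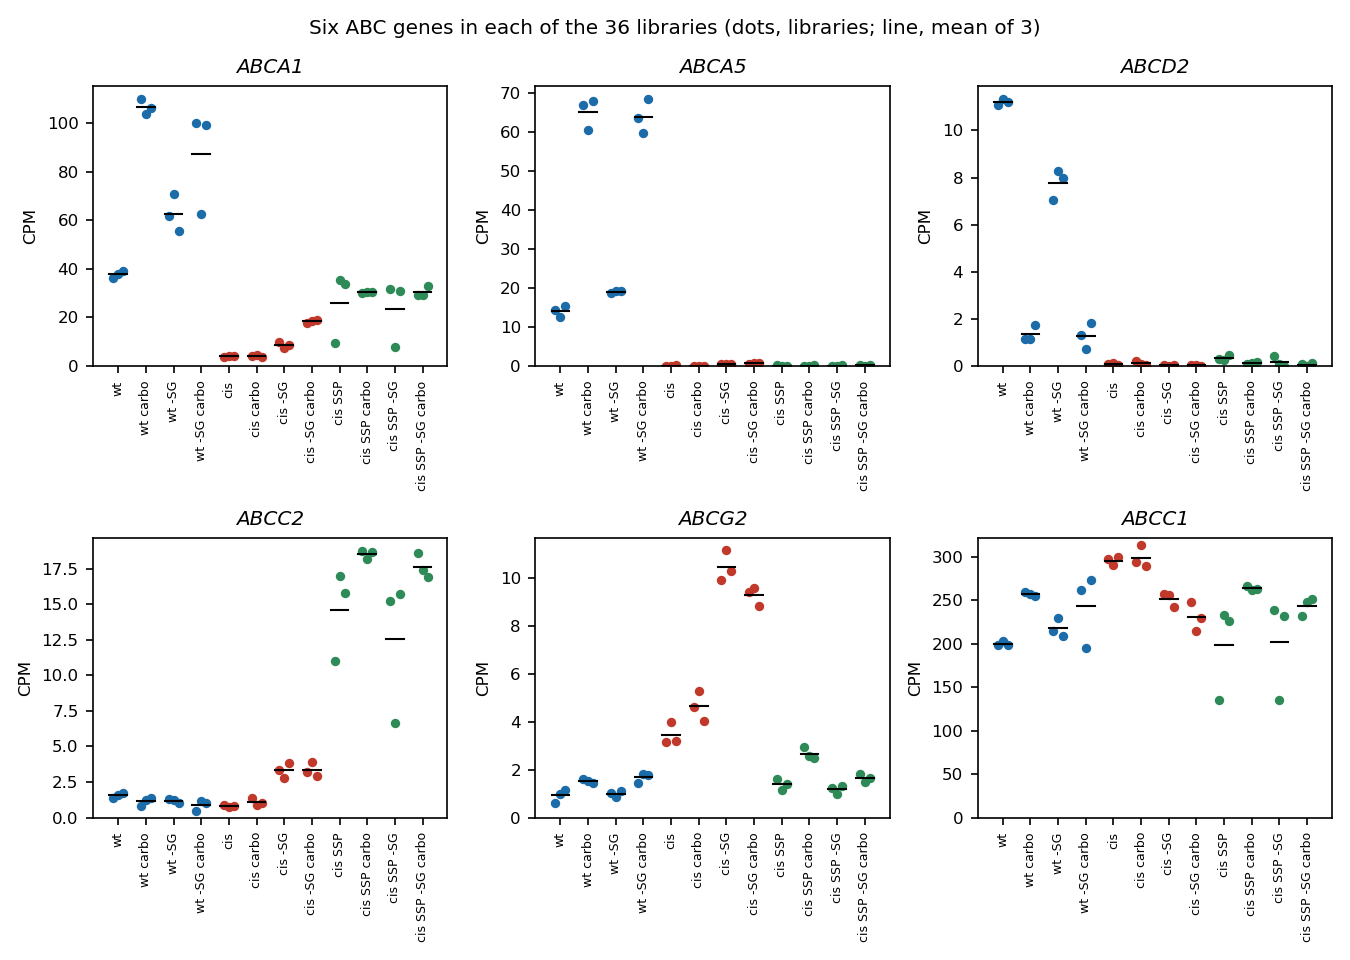
Level in CPM of ABCA1, ABCA5, ABCD2, ABCC2, ABCG2 and ABCC1 in each of the 36 libraries, with points for libraries, lines for the mean of 3, and blue for wt, red for cis and green for cis SSP cells. ABCA5 and ABCD2 are highest in wt cells, ABCC2 in cis SSP and ABCG2 in cis -SG cells, and the single low points of ABCA1 in cis SSP and cis SSP -SG belong to libraries 25 and 32.

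Carboplatin was also added to deprived cells. In wt cells without serine and glycine it changed 26 of 32 tested members, 14 higher and 12 lower, against 68.9% of 14467 genes, 34.3% higher and 34.6% lower. ABCA5 rose from 18.6, 19.2 and 19.2 CPM to 63.4, 59.7 and 68.3 CPM, a log2 fold change of 1.78 (SE 0.0692, adjusted p = 3.14e-08) in the edgeR test. ABCA9, ABCA10 and ABCF2 rose with log2 fold changes of 3.21, 1.44 and 0.84, and ABCC3 went from 3 counts in all to 100, a ratio of 39.6 (95% counting interval 13.2 to 195). ABCD2, ABCC6, ABCD4 and ABCB6 fell, with log2 fold changes of -2.56, -1.24, -0.89 and -0.80. ABCA1 had 61.9, 70.9 and 55.5 CPM and 100.2, 62.8 and 99.4 CPM, which overlap, and its call (adjusted p = 0.0455) held in 2 of 6 fits that left out a library. Replicate 2 of wt -SG carbo was also the lowest of its 3 libraries for ABCA2, ABCA3, ABCC1, ABCC4 and ABCC5. The mean chi-square of its gene counts against replicates 1 and 3 was 25.6 and 24.6, and 1.20 between those replicates. Without this library 73.3% of all genes were called, and between 63% and 65.2% without any other single library. Leaving out single libraries gave 24 to 27 called members, and why this library stood apart was not tested.

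In cis cells without serine and glycine, carboplatin changed 5 of 28 tested members, 3 higher and 2 lower, against 22.5% of 14476 genes, 10.9% higher and 11.6% lower. The number was 8 without replicate 1 of cis -SG carbo and 3 without replicate 2 of cis -SG, where 34.7% and 11.9% of all genes were called. ABCA1 rose from 9.87, 7.55 and 8.51 CPM to 17.5, 18.6 and 19.1 CPM, a log2 fold change of 1.18 (SE 0.105, adjusted p = 9.95e-06) in the edgeR test. The libraries did not overlap, in contrast to ABCA1 in cis cells with serine and glycine, but the difference between these responses was not tested. ABCC10, a broad drug exporter, had a log2 fold change of 0.25 (SE 0.0565, adjusted p = 0.00656), which fell to 0.15 with an adjusted p of 0.121 without libraries 23 and 24. That fit has 1 library of cis -SG carbo, so that the spread comes from the untreated libraries alone and the lone library is assumed to vary like them. ABCE1 and ABCF2 fell by 0.15 and 0.09, and the call of ABCF2 held in 2 of 6 fits that left out a library. In cis SSP cells without serine and glycine 0 of 26 members were called by edgeR, with 4 at an unadjusted p under 0.05, and 0 by DESeq2, with 2. The background of called genes with edgeR was 1.47% of 13541, 1.17% higher and 0.295% lower. DESeq2 called 576 of 14776 genes. An unadjusted p under 0.05 was found for 2092 genes with edgeR and 1996 with DESeq2. Without library 32 the number called was 9, against 41.1% of all genes.

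Genes known to regulate lipid-exporting members, and other targets of the same regulators, were read from lists. LXR receptors, one of which is NR1H3, sense oxysterols and raise ABCA1 and ABCG1, and SREBP2 raises sterol synthesis when sterols are low. Of 9 LXR targets other than ABC genes, all tested, 4 were higher and 5 lower in cis than in wt cells. Over all genes 39.4% were higher and 39.1% lower. NR1H3 fell from 21.6, 22.5 and 23.2 CPM to 4.49, 5.84 and 3.95 CPM, a log2 fold change of -2.26 (SE 0.0976, adjusted p = 1.04e-24) in the edgeR test, and APOE, a lipoprotein that accepts cholesterol, fell from 156, 177 and 158 CPM to 2.57, 2.11 and 1.75 CPM. MYLIP, another LXR target, rose from a mean of 0.162 to 8.33 CPM, so that the list did not move as 1 group. In cis SSP against cis cells 5 of the 9 were higher and 0 lower, against 15.8% and 13.3% of all genes. The median log2 fold change of the 9 was 0.44 against 0.01 over all genes. Among these targets NR1H3 had 17, 9.93 and 10.0 CPM and APOE 9.33, 3.95 and 4.02 CPM in cis SSP libraries, and library 25 was the highest in both.

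Of 12 sterol synthesis and uptake genes, 11 were tested, and all 11 were lower in cis cells without serine and glycine. The median log2 fold change was -1.19 against 0.01 over all genes, of which 37.4% were lower. INSIG1, a sensor that holds SREBP2 back when sterols are plentiful, fell from 104, 102 and 106 CPM to 20.2, 21.1 and 19.8 CPM, by 2.33 on the log2 scale. In wt cells 10 of 11 were lower, with a median of -0.39, against 25.1% of all genes lower. By the interaction term 9 of 11 had a more negative response in cis cells and 1 went the other way. Over all genes these shares were 26.9% and 27.1%. In cis SSP against cis cells 9 of 11 were lower and none higher, with a median of -0.80. Over all genes 13.3% were lower and 15.8% higher there. STARD4, a cytosolic sterol carrier, fell from 271, 248 and 266 CPM in cis to 24.5, 33.4 and 36.2 CPM in cis SSP libraries. ABCA1 was higher in each of these 3 comparisons. In cis against wt cells 8 of 11 sterol genes were lower and 2 higher, with a median of -0.25, and ABCA1 was lower. Over all genes in that comparison 39.1% were lower and 39.4% higher. Of the LXR targets in cis cells without serine and glycine, 3 of 9 were higher and 4 lower, with a median of -0.07. Over all genes 37.6% were higher and 37.4% lower there. NFE2L2, which encodes the NRF2 factor that binds TGACNNNGC, rose with carboplatin in wt cells from 108, 109 and 109 CPM to 269, 262 and 265 CPM. It belongs to a list of 15 regulators, of which 11 were tested here, 3 higher and 6 lower, with a median of -0.12. Over all genes 38.9% were higher and 39.0% lower. Of the promoters shown for the chromosome 17 row, only that of ABCA5 held a match to TGACNNNGC. In cis cells the response of NFE2L2 was smaller, with a difference between the responses of 1.19 (SE 0.0412, adjusted p = 2.96e-33). No link between these genes and the ABC members was tested.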

How the data were processed

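Gene expression was measured by RNA-seq with reads of 65 bases in 36 libraries, 3 for each of 12 conditions. The authors deposited raw read counts per gene, not normalised, on GRCh37.p13 (hg19). The submitters' processing notes name STAR, HTSeq, DESeq and DESeq2, and the strand setting of the counting is not given in the sources used here. Of the 57820 gene identifiers, 55538 were matched to symbols, and 3 rows that name no gene were left out of totals and tests. Groups came from the labels, and no pair of libraries agreed within sampling noise.

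Counts were filtered with filterByExpr, scaled by TMM and tested in edgeR 4.0.16 (R 4.3.3, limma 3.58.1) by a robust quasi-likelihood fit on the libraries of each comparison, with Benjamini-Hochberg adjustment over all genes tested and an adjusted p threshold of 0.05. Interaction terms came from fits to the 4 conditions involved. The procedure was tested on simulated data. CPM values use TMM-scaled library sizes. Counting intervals are exact 95% intervals and cover counting error only, and a count of 0 was read against a floor of 3 counts. Promoters, placed by annotated transcript starts, were matched for 45 of 45 members. Alternatives were DESeq2 1.42.0, other scalings, other count filters, other detection limits, 1 fit over all libraries, and leaving out libraries. Leaving out libraries 23 and 24 was chosen after seeing the data. Figures were drawn with matplotlib 3.10.9 in Python 3.11.15.

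The main drug, sterol and ribosome-acting members were always named (ABCB1, ABCC1 to ABCC5, ABCG2, ABCA1, ABCG1, ABCE1, ABCF1, ABCF2 and ABCF3). In each comparison up to 5 called members per direction with at least 50 mean counts and no overlap were named as well. Members outside this rule, among them ABCA4, ABCA6 and ABCD3 in cis against wt cells, were chosen after their values were seen. Values of 2 members are not reported here by name and are left out of the figures, while counts over members include them. The members and gene lists were chosen with earlier results of these data known.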

Additional observations from a re-analysis of the deposited data

Results flagged for a closer look

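Each result here was picked out because the same treatment gave different changes in wt and cis cells, by the interaction term of the edgeR fit with Benjamini-Hochberg adjustment over all genes. Each value is the wt log2 fold change minus that of cis cells. For carboplatin the term was called for 23 of 33 tested members, against 57.6% of 15300 genes. It was positive for ABCA1 (1.44), ABCF2 (0.68), ABCF3 (0.58) and ABCC5 (0.41). It was negative for ABCD2 (-3.74), ABCB10 (-0.89), ABCB6 (-0.76) and ABCB9 (-0.53). The value for ABCD2 rests on 4 counts in all in untreated cis cells. For serine and glycine deprivation the term was called for 19 of 29 tested members, against 54.0% of 15418 genes. It was positive for ABCG4 (1.05), ABCB9 (0.82), ABCA7 (0.77) and ABCA2 (0.35). It was negative for ABCA5 (-2.13), ABCG2 (-1.53), ABCC8 (-1.27), ABCC10 (-0.32) and ABCC5 (-0.23). The value for ABCA5 also rests on 4 counts in all in untreated cis cells. Not every called member is listed here, and ABCC2, described above, had a more negative deprivation term than those listed. Groups of 3 libraries are too small for the test of single outlying libraries.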

How the results depend on the processing

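No paired analysis was possible because the labels number the libraries 1 to 36 and conditions share no replicate number. No result reversed under any alternative run, and of the values for single members 1105 kept their side of the threshold and 56 lost it. One fit over the 36 libraries moved the number of members called to 0 for carboplatin in cis cells, 10 in cis SSP cells, 1 in cis -SG cells and 5 in cis SSP -SG cells, to 7 for deprivation in wt cells and 3 in cis SSP cells, and to 9 for the deprivation interaction. Of the 16677 genes in that fit, carboplatin calls numbered 401, 3090, 1141 and 2860 in these cells, in the same order. Deprivation calls numbered 2821 and 1530, and those of the deprivation interaction 4880. DESeq2 called 1 member for carboplatin in cis and 2 in cis SSP cells, against 1349 of 11616 and 722 of 16606 genes. Without libraries 25 and 32 deprivation changed 11 members in cis SSP cells, against 35.9% of all genes. Leaving out single libraries gave 2 to 4 members for carboplatin in cis cells, 0 to 17 in cis SSP cells, 3 to 8 in cis -SG cells and 0 to 9 in cis SSP -SG cells, and 7 to 20 for cis SSP against cis cells. Over all genes these fits gave, in the same order, 1755 to 2554, 9 to 5835, 1666 to 5224, 0 to 5679 and 1995 to 9262 calls. Carboplatin in cis cells split into 2 higher and 1 lower with DESeq2 size factors and 1 higher and 2 lower with total counts, and in cis -SG cells into 3 higher and 1 lower with total counts. Over all genes these 3 fits called, in the same order, 1251 higher and 1441 lower, 1088 and 1539, and 1919 and 1220. Detected members numbered 34 at 0.5 CPM, 30 at 2 CPM and 33 with total-count scaling. The cause of these shifts was not tested. Over all genes, calls ranged over alternatives and left-out libraries from 9 to 5835 for carboplatin in cis SSP cells (377 as reported), from 0 to 5679 in cis SSP -SG cells (199), from 1141 to 5224 in cis -SG cells (3253) and down to 401 in cis cells (2702), and from 1995 to 9262 for cis SSP against cis cells (3990) and from 1 to 4996 for deprivation in cis SSP cells (3). One fit gave 2821 for deprivation in wt cells (7021), 5240 for the carboplatin interaction (8807) and 4880 for the deprivation interaction (8321).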

Other observations

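ABC genes whose symbols do not carry the ABC prefix fell outside the family rule, and CFTR and TAP1 among them changed between cell states. CFTR, the chloride channel of subfamily C that is mutated in cystic fibrosis, had 0.0553, 0.111 and 0 CPM in wt libraries and 4.22, 4.11 and 5.30 CPM in cis libraries. In cis cells without serine and glycine it rose to 16.2, 17.4 and 15.5 CPM, a log2 fold change of 1.87 (SE 0.103, adjusted p = 3.41e-21) in the edgeR test. In cis SSP cells its mean was 0.170 CPM, a log2 fold change against cis cells of -4.57 (SE 0.459, adjusted p = 0.00108). CFTR was thus low in wt and cis SSP cells and present in cis cells.

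TAP1, a subunit of the pump that loads peptides for antigen presentation, fell from 59.2, 61.1 and 60.5 CPM in wt to 5.15, 6.22 and 5.86 CPM in cis libraries, a log2 fold change of -3.41 (SE 0.0690, adjusted p = 5.95e-38). It rose with carboplatin in wt cells to a mean of 107 CPM, and in cis SSP cells from a mean of 2.75 to 6.41 CPM. TAP2, its partner, was listed at 0 in all 36 libraries. Whether this reflects absent RNA or the way reads were counted was not tested.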
